A study of Mus musculus with 6 samples.

Results

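The genes described here belong, by symbol, to families of enzymes that write or remove methyl and acetyl groups on histones. They were compared between megakaryocyte-erythroid progenitors of 2 Fog1 genotypes. Members were the genes whose symbol begins with Kmt, Setd, Smyd, Prdm, Kdm, Kat, Hdac or Sirt followed by a digit, without Hdac1, Hdac2, Kdm5c, Kdm5d and Kdm6a. There were 72 of them among 19661 genes tested, measured by 78 of 25668 probe sets. The 6 genes with 2 probe sets were represented by the brighter one. By family name they comprised 21 methylation writers (8 Kmt, 8 Setd and 5 Smyd genes), 12 Prdm genes, 15 Kdm erasers, 8 Kat acetylases and 16 deacetylases (9 Hdac and 7 Sirt genes).

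The cells came from mouse bone marrow and were sorted for Kit, for low Fc gamma receptor II/III and against lineage markers, Sca1 and CD34. Mice of the B6.129 strain were either Fog1+/+ or carried a knock-in on both Fog1 alleles (Fog1ki/ki), and each genotype had 3 samples, 1 per 1-colour array. The labels call them biological replicates without giving the age of the mice or the number of animals behind each, and p-values measure only the spread between these samples. What the knock-in alters is not in the labels. The study is known for a FOG1 protein, the cofactor of GATA1, that cannot bind the NuRD deacetylase complex, and the question is which transcripts need that binding. Values are RMA values on the log2 scale, and differences are Fog1ki/ki minus Fog1+/+.

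Histone tails carry methyl groups on lysines, set mostly by SET-domain enzymes and removed by the flavin-dependent Kdm1 or the JmjC-domain demethylases, and acetyl groups, set by acetyltransferases and removed by zinc-dependent Hdac or NAD-dependent Sirt enzymes. Methylation of H3K4 marks promoters and enhancers in use, methylation of H3K36 marks transcribed gene bodies, and methylation of H3K9 or H3K27 marks silenced chromatin. In red cell and megakaryocyte progenitors, repressors such as GFI1B recruit LSD1 (Kdm1a) with its CoREST partners, while FOG1 brings NuRD to GATA1. Several enzymes named here also act on proteins other than histones, and for some the known substrate is not a histone.

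The array medians lay between 6.02 and 6.15 and the lower quartiles between 4.81 and 4.92. Erythroid markers of the sorted progenitors were well above those quartiles, with Klf1 at 8.32 in Fog1+/+ and 8.30 in Fog1ki/ki and Epor at 7.69 and 7.62. Replicate 3 of each genotype had low values of the Y-linked gene Eif2s3y (3.21 and 3.46, against 9.29 to 9.44 on the other 4 arrays) and high values of Xist, the X-inactivation RNA (11.02 and 11.03). Xist was also high in Fog1ki/ki replicate 2 (9.13), where Eif2s3y was high as well (9.44), and no Fog1+/+ array had both high. On the other 3 arrays Xist lay between 5.18 and 5.90. Zfpm1, which encodes FOG1, differed by 0.05 on the log2 scale (SE 0.13, limma adjusted p = 0.948). Mean marker levels per array were separate between the genotypes for 4 lists. They were higher in Fog1ki/ki for 11 mast cell genes (6.61 to 7.07 against 6.10 to 6.14, of which Ms4a2 and Gata2 rose and 9 did not pass), 7 megakaryocyte genes (6.54 to 6.76 against 6.22 to 6.38, none past the test) and 6 B cell genes (5.74 to 5.86 against 5.36 to 5.52, of which Blnk rose), and lower for 11 erythroid genes (9.31 to 9.42 against 9.51 to 9.58, of which Xk fell). Within the mast cell list the differences were uneven, at 3.79 for Ms4a2, 1.91 for Fcer1a and 1.14 for Gata2. Cpa3 had a difference of 0.53, Cma1 and Mcpt4 each one of 0.21, and Hdc, Srgn, Tpsab1 and Tpsb2 differences from 0.04 to 0.13. Kit, used in the sort, had one of -0.38 without overlap (limma adjusted p = 0.232). The erythroid differences were uneven as well, at -0.60 for Xk and -0.49 for Add2 (limma adjusted p = 0.0592). The other erythroid genes ran from -0.22 (Ermap) to 0.01 (Tfrc), and 10 of the 11 did not pass. The megakaryocyte differences were 0.97 for Pf4, 0.83 for Plek and 0.31 for Itga2b. The other megakaryocyte genes ran from -0.04 (Ppbp) to 0.15 (Gp9). In the B cell list, Blnk had the largest difference, followed by Vpreb1 (0.49, with overlap). The other B cell genes ran from 0.05 (Pax5) to 0.16 (Cd79a). Means of Cd79a and Ebf1 lay below 4.81 in both genotypes. Of the listed genes, 7 of 12 megakaryocyte and 6 of 7 B cell genes were measured. Mean levels per array overlapped between the genotypes for neutrophil, monocyte, T and NK cell and stem cell lists. In sorted bulk samples, fewer cells of a type and less RNA per cell cannot be told apart, and the part of other cells in the results was not tested.

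Upstream sequences are shown as examples for 3 of the 10 members whose genotypes did not overlap. Of these 3, 2 are demethylases with lower values in Fog1ki/ki and 1 is a methyltransferase with higher values. They are the 250 bases before a RefSeq start on GRCm38.p6, written 5′ to 3′ on the strand of the gene, with capitals for hexamers of GATA with A or T before it and A or G after it, on either strand, the sequence that GATA factors prefer. Kdm1a lies on the minus strand at chr4:136602724-136602973, Setd7 on the minus strand at chr3:51560824-51561073, and Kdm4c on the plus strand at chr4:74242247-74242496, the more distal of its 2 starts in the table.
Kdm1a: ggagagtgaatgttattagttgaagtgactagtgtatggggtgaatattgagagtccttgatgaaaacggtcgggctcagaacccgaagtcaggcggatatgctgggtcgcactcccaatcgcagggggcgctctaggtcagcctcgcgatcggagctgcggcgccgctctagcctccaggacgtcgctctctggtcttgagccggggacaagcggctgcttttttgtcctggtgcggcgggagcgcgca
Setd7: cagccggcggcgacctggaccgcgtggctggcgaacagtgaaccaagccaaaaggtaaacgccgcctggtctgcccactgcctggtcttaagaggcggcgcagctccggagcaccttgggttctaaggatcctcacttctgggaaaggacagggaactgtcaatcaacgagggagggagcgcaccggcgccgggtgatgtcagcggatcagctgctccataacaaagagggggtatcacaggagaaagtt
Kdm4c: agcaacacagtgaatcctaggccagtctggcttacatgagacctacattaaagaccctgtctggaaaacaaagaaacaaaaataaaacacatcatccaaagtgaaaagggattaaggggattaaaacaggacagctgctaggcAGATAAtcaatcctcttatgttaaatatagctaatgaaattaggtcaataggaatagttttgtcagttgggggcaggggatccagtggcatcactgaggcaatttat

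The Kdm1a and Setd7 stretches were rich in CG dinucleotides (21 and 17) and held none of the hexamers. The distal Kdm4c stretch had 0 CG dinucleotides and 1 hexamer, 107 bases before the start. With the 50 bases after that start included, it held 2 hexamers. The 250 bases before the other Kdm4c start held 19 CG dinucleotides and no hexamer. Kat6b, Kdm2b, Sirt1, Setd2 and Setd6, whose genotypes did not overlap either, had no hexamer in any window. Windows of 300 bases (250 before and 50 after the start) were available for 57 of the 72 members, and none for Smyd3. At least 1 hexamer was found in a window of 11 of the 57, or 19.3%, against 28% of 15401 tested genes with a window. A match of letters is not evidence of binding.

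Most histone-modifying enzyme genes differed little between the genotypes, and 1 passed the test. Smyd3, a SET- and MYND-domain methyltransferase, fell, and the other 71 members did not reach an adjusted p under 0.05 in limma. That is 1 of 72 members, or 1.39%, where 0.773% of all genes passed (0.376% higher and 0.397% lower in Fog1ki/ki). At an unadjusted p under 0.05 there were 5 members, 1 higher (Setd7) and 4 lower (Smyd3, Kat6b, Kdm1a and Kdm4c). Their share of 6.94% lay below the 9.57% of all genes. In 10 members, or 13.9%, no array of one genotype reached into the range of the other, near the 14.8% of all genes. Of these 4 were higher in Fog1ki/ki (8.31% of all genes were) and 6 lower (6.53% of all genes).

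**Figure D1:**
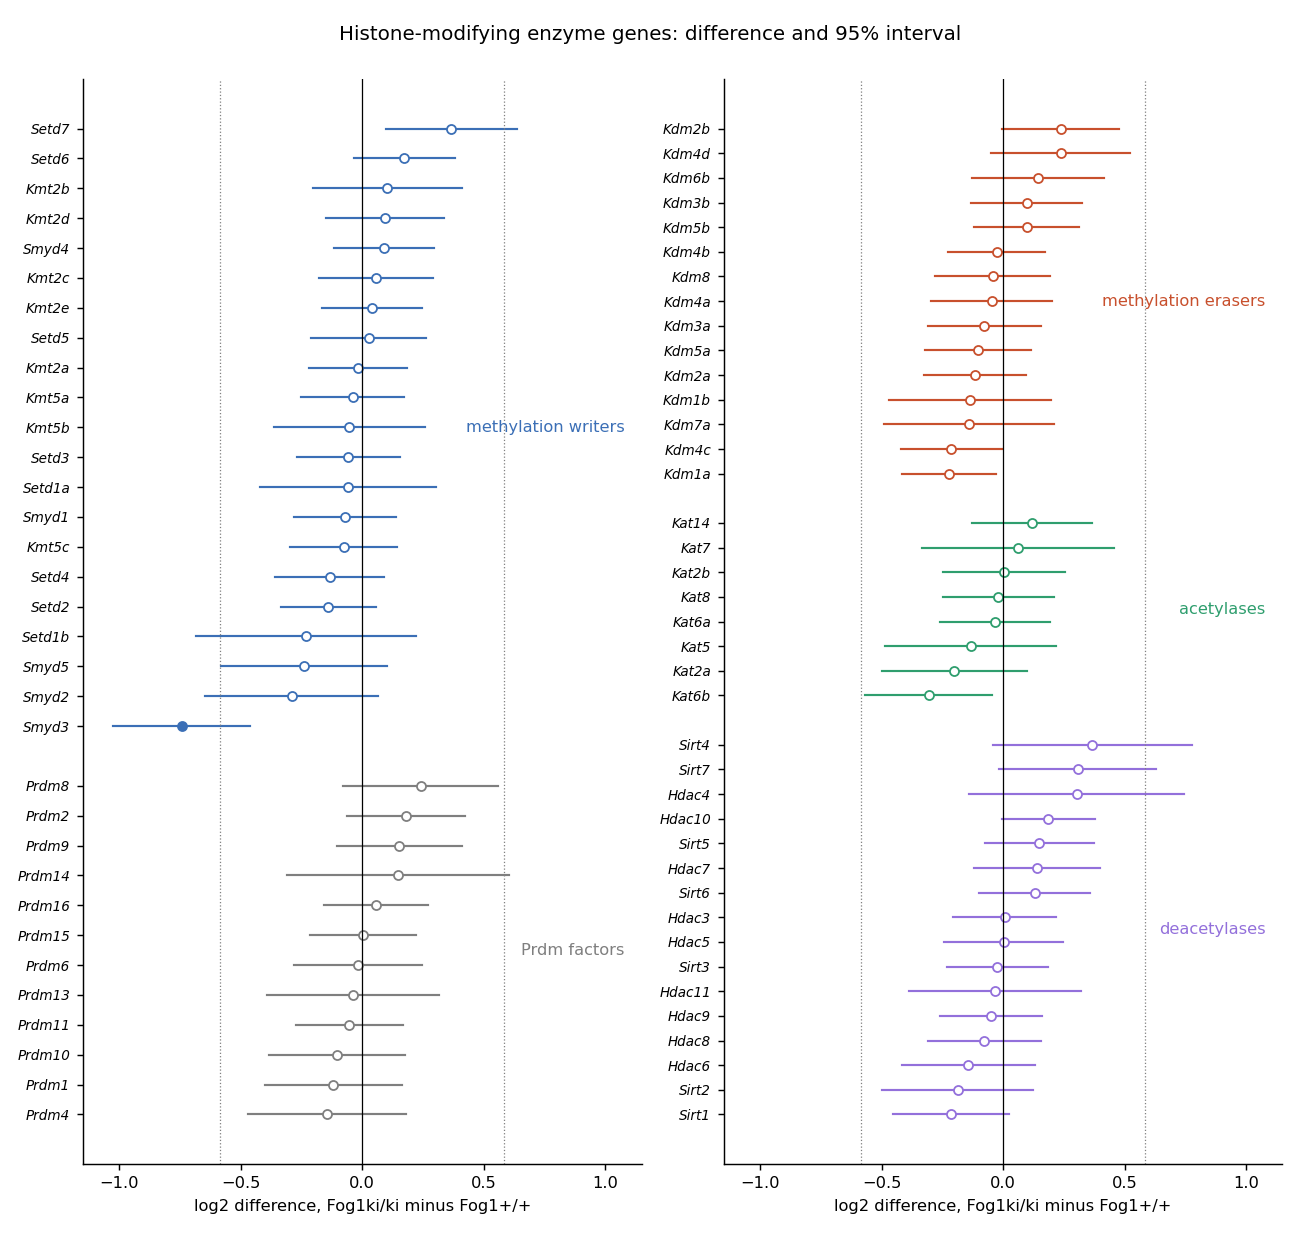
Log2 difference between Fog1ki/ki and Fog1+/+ for each of the 72 genes, by class, with the 95% interval of the limma model as a line. The filled point is Smyd3 (-0.74), the only member past an adjusted p of 0.05, and dotted lines mark a 1.5-fold difference either way.

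The sizes of the differences were also near those of the array at large, though the members were brighter. Means below 4.81 in both genotypes were found for 1 of 72 members, against 3840 of 19661 genes. RMA narrows differences of dim probe sets, so the shares below compare genes of unlike level. The middle quartiles of the members ran from -0.12 to 0.10, against -0.07 to 0.11 for all genes, and the median absolute difference was 0.11 against 0.10. The 95% interval stayed within a 1.5-fold difference in both directions for 64 members, or 88.9%, against 89.3% of all genes. The 8 whose interval reached further were Smyd3, Setd7, Setd1b, Smyd2, Sirt4, Sirt7, Hdac4 and Prdm14, so a 1.5-fold difference in those genes was not excluded by these arrays. The median difference of the members was -0.03 and that of all genes 0.02. A difference above 0 was found in 31 members and 43.1% of them, against 56.3% of all genes. With quantile normalization repeated these shares were 47.2% and 51.2%, and with each array centred on its median 34.7% and 43.2%.

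By class, the medians lay close together. The writers had a median log2 difference of -0.05 and the Kdm erasers one of -0.05. The acetylases had a median of -0.03 and the deacetylases one of 0.005, and the Prdm genes one of -0.01. All 5 were smaller in size than the SD of the class's median level between arrays of 1 genotype (0.09 to 0.18). That SD is one of levels and not of differences, so it is a loose yardstick.

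**Figure D2:**
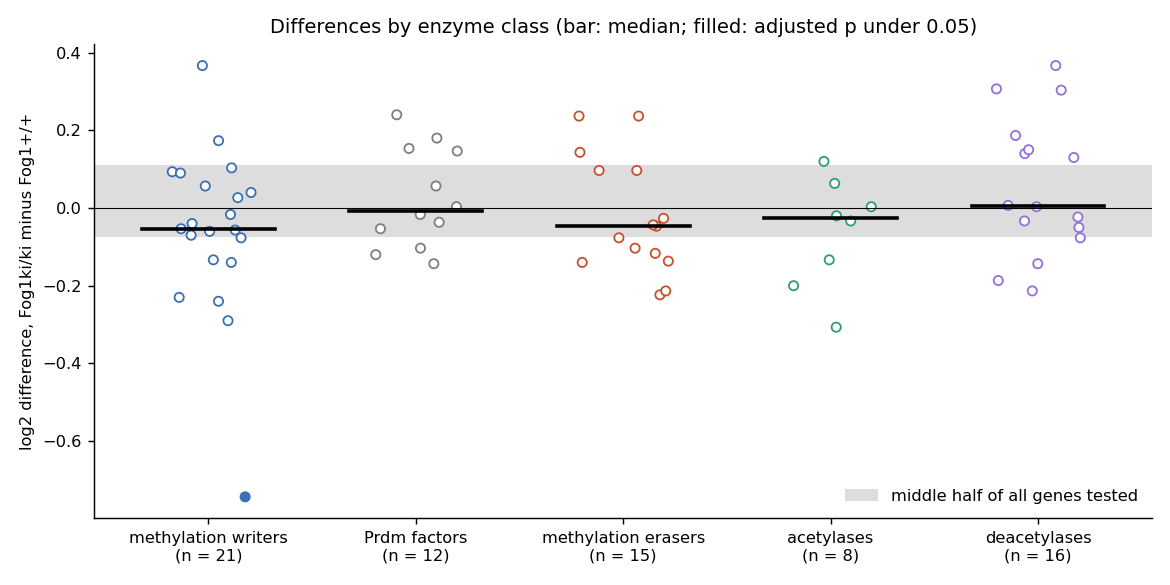
Log2 differences of the members in each enzyme class, with the class median as a bar and the middle quartiles of all 19661 genes (-0.07 to 0.11) as the grey band. The 5 medians run from -0.05 to 0.005 and Smyd3 (-0.74, filled) lies apart from the other writers.

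Among the 21 writers, limma called 0 higher and 1 lower, and 20 missed the threshold. An unadjusted p under 0.05 was found for 1 higher (4.99% of all genes were) and 1 lower gene (4.58% of all genes). Smyd3 measured 8.63, 8.82 and 8.52 in Fog1+/+ and 7.70, 7.99 and 8.05 in Fog1ki/ki. Each Fog1ki/ki array lay below every Fog1+/+ array, and the gene was 1.67-fold lower (log2 difference -0.74, SE 0.12, 95% interval -1.03 to -0.46, limma adjusted p = 0.0358). SMYD3 methylates histone and cytoplasmic substrates, among them a kinase of the MAP kinase pathway. The difference of Smyd3 lay between -0.88 and -0.64 under the 16 alternative settings, but several of these could not move it from -0.74. Those were the filter on dim genes, the intensity trend, the replicate block and the term marking both replicate 3 arrays. Averaging or testing all probe sets could not move it either, as Smyd3 has 1 probe set. The range thus rests on the settings that rescaled, weighted or left out arrays. The call of Smyd3 held in 5 of the 16 settings only. It was lost when each of the 6 arrays in turn was left out (limma adjusted p from 0.0588 to 0.136), without both arrays with low Y-linked values (0.176), with the replicate number as a block (0.0501), with a term for those 2 arrays (0.0620), with quantile normalization repeated (0.0734) and over all probe sets (0.0597).

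The other Smyd genes did not pass. Smyd2, which methylates H3K36 and p53, measured 8.21, 8.51 and 8.31 in Fog1+/+ and 8.31, 7.71 and 8.14 in Fog1ki/ki, with replicate 2 of Fog1ki/ki the lowest and the genotypes overlapping (log2 difference -0.29, SE 0.16). Smyd5 had a difference of -0.24, with replicate 3 of Fog1+/+ at 7.22 above the 5 other arrays (6.48 to 6.75). Smyd1, known from heart and skeletal muscle, had a difference of -0.07 and Smyd4 one of 0.09.

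Smyd3 lies on chromosome 1 among other genes that differed. Of the 20 tested genes nearest to it in chromosomal order, 10 on each side, 3 passed the test, against 0.773% of all genes. An unadjusted p under 0.05 was found for 8 of the 20, against 9.57% of all genes. These neighbours were examined after the Smyd3 value was known. The adjacent Kif26b, a kinesin family member, measured 5.61, 5.71 and 5.60 in Fog1+/+ and 6.30, 6.29 and 6.30 in Fog1ki/ki and rose (log2 difference 0.66, limma adjusted p = 0.0111). Sccpdh, 2 genes to the other side, fell (-1.58, limma adjusted p = 0.0309), and Itpkb, which phosphorylates inositol trisphosphate, rose (1.05, limma adjusted p = 0.0269). Both directions thus occurred along this stretch. The mice are labelled B6.129, a mix of strains, and whether the genotypes carried different strain alleles around Smyd3 was not tested. Zfpm1, which encodes FOG1, lies on chromosome 8. Kif26b has 2 probe sets, and the values given are those of the brighter one. Efcab2, between Hnrnpu and Kif26b, had a difference of -0.57 that did not pass, and Hnrnpu one of -0.02.

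**Figure D3:**
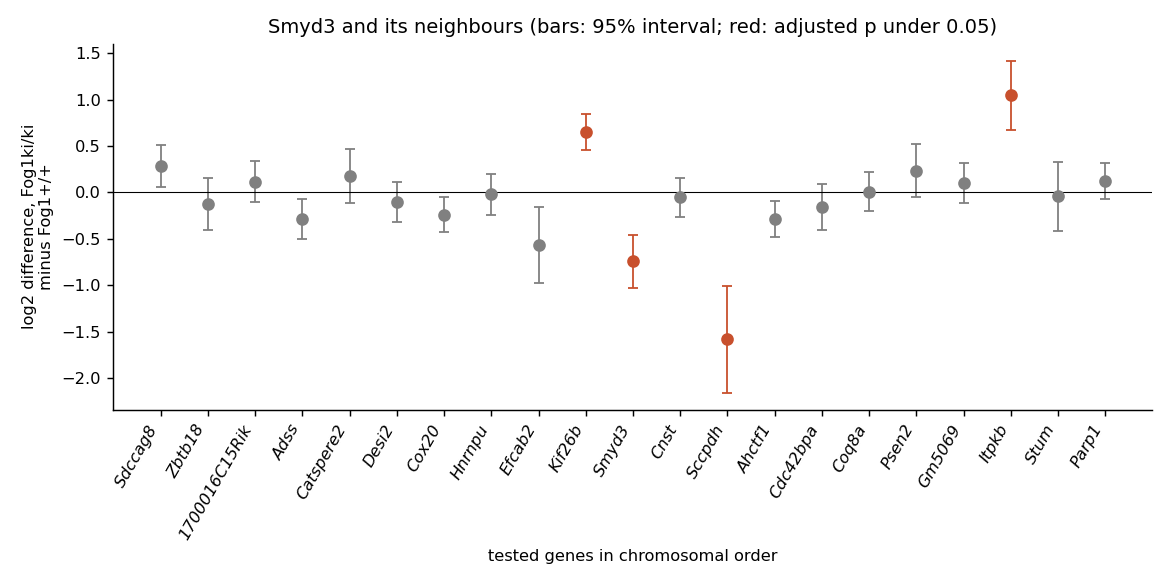
Log2 differences of Smyd3 and the 10 tested genes on either side of it in chromosomal order, with 95% intervals; red marks an adjusted p under 0.05. Kif26b (0.66) and Itpkb (1.05) lie above 0 and Smyd3 (-0.74) and Sccpdh (-1.58) below.

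The Kmt2 and Setd1 genes encode the catalytic subunits of the large H3K4 methyltransferase complexes, apart from Kmt2e, for which little catalytic activity is known. None of these 7 passed in limma, or reached an unadjusted p under 0.05 (0 in both), with differences from -0.23 to 0.10. Kmt2a, the MLL1 gene required by blood stem cells, measured 9.84, 9.82 and 9.80 in Fog1+/+ and 9.88, 9.71 and 9.82 in Fog1ki/ki, which overlapped (log2 difference -0.02, SE 0.09, 95% interval -0.22 to 0.19). Kmt2b had a difference of 0.10 (SE 0.14), Kmt2c one of 0.06 and Kmt2e one of 0.04. The 2 probe sets of Kmt2d differed in sign, at 0.09 for the brighter and -0.06 for the other. Setd1b had the lowest difference of the 7. Its brighter probe set measured 8.01, 7.13 and 7.81 in Fog1ki/ki against 7.79, 7.89 and 7.96, and the difference of -0.23 became 0.03 without Fog1ki/ki replicate 2. Its other probe set measured 7.32, 7.59 and 7.59 against 7.57, 7.57 and 7.77 (log2 difference -0.14, limma adjusted p = 0.798 over all probe sets), with replicate 1 the lowest of Fog1ki/ki and the genotypes overlapping. Setd1a had a difference of -0.06.

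Setd7, which adds a single methyl group to H3K4 and to other proteins, measured 7.66, 7.55 and 7.67 in Fog1+/+ and 8.13, 7.75 and 8.10 in Fog1ki/ki. The genotypes did not overlap, with Fog1ki/ki replicate 2 close to the Fog1+/+ arrays. The log2 difference of 0.37 (SE 0.12, unadjusted p = 0.0134) did not pass over all genes (limma adjusted p = 0.321), nor under any of the 16 alternatives (0.134 to 0.858). Setd2, which sets trimethylation of H3K36, measured 10.30, 10.39 and 10.33 in Fog1+/+ and 10.25, 10.17 and 10.18 in Fog1ki/ki, which did not overlap, and its probe sets gave similar differences of -0.14 and -0.17 that did not pass. Setd6, which methylates the NF-kappa B subunit RelA, had a difference of 0.17 with no overlap (limma adjusted p = 0.611). Setd3, whose known substrate is a histidine of actin, had one of -0.06, Setd4 one of -0.13 and Setd5 one of 0.03. The 3 Kmt5 genes, the H4K20 methyltransferases, had differences of -0.04 (Kmt5a), -0.05 (Kmt5b) and -0.08 (Kmt5c), with SEs of 0.09 to 0.14.

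Of the 12 Prdm genes, most of which encode zinc finger transcription factors with little or no known methyltransferase activity, none passed (limma; 0 at an unadjusted p under 0.05 as well), and the genotypes overlapped in each. The highest difference was that of Prdm8 (0.24, SE 0.14) and the lowest that of Prdm4 (-0.14, SE 0.14), which turned to 0.01 without Fog1ki/ki replicate 2, an array at 6.86 against 7.46 and 7.19. Prdm2 had opposite signs in its 2 probe sets, 0.18 and -0.11. Prdm16, a regulator of blood stem cells, measured 6.06, 6.10 and 6.28 in Fog1+/+ and 6.19, 6.22 and 6.20 in Fog1ki/ki (log2 difference 0.06). Prdm1, which encodes the plasma cell repressor BLIMP1, was the only member whose mean lay below the lower quartile of every array in both genotypes, at 4.33 and 4.21. Prdm9, the meiotic H3K4 methyltransferase that places recombination sites, had a difference of 0.15, and Prdm14, a germ cell factor, one of 0.15 with the widest error of all members (SE 0.20).

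None of the 15 Kdm demethylase genes passed (0 in limma). At an unadjusted p under 0.05, 2 were lower, against 4.58% of all genes. Kdm1a, the LSD1 gene, measured 9.55, 9.45 and 9.47 in Fog1+/+ and 9.24, 9.28 and 9.28 in Fog1ki/ki. The arrays were tight in both genotypes and did not overlap, and the log2 difference was small at -0.22 (SE 0.09, 95% interval -0.42 to -0.03, limma adjusted p = 0.433). Over the alternatives it lay between -0.27 and -0.15, though the settings that could not move the Smyd3 difference could not move this one either. It passed in 0 of 16. Kdm1b, a related enzyme known from oocytes, overlapped (-0.14, with Fog1ki/ki replicate 2 at 6.48 against 6.95 and 7.05). The other H3K4 erasers measured were Kdm5a (-0.10) and Kdm5b (0.10).

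Among the erasers of H3K36 and H3K9, Kdm4c measured 8.93, 8.87 and 8.75 in Fog1+/+ and 8.62, 8.60 and 8.69 in Fog1ki/ki, without overlap (log2 difference -0.21, SE 0.09, limma adjusted p = 0.508). Its relatives Kdm4a and Kdm4b had differences of -0.05 and -0.03, and Kdm4d one of 0.24 with overlap. Kdm2b, which also recruits a Polycomb complex to CpG islands, measured 6.91, 6.89 and 6.91 in Fog1+/+ and 7.34, 7.05 and 7.03 in Fog1ki/ki. Its genotypes did not overlap, replicate 1 of Fog1ki/ki stood above the rest, and the difference of 0.24 did not pass (limma adjusted p = 0.537). Kdm2a (-0.12), Kdm3a (-0.08) and Kdm3b (0.10) overlapped. The H3K27 demethylase Kdm6b, which is induced in inflammation, had a difference of 0.14, Kdm7a one of -0.14 (-0.09 in its other probe set) and Kdm8 one of -0.04.

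None of the 8 acetylase genes passed (0 in limma, with 1 lower at an unadjusted p under 0.05, against 4.58% of all genes). Kat6b, which encodes the MORF acetyltransferase, measured 7.41, 7.33 and 7.26 in Fog1+/+ and 7.20, 7.06 and 6.82 in Fog1ki/ki. The arrays did not overlap, though the nearest of each genotype were close (log2 difference -0.31, SE 0.11, 95% interval -0.57 to -0.05, limma adjusted p = 0.417). Its close relative Kat6a, the MOZ gene of blood stem cells, measured 9.03, 9.25 and 9.10 against 9.11, 8.99 and 9.18, which overlapped (-0.03, SE 0.10). Kat7, an acetylase of H3K14, had a difference of 0.06, Kat8, which acetylates H4K16, one of -0.02, and Kat5 one of -0.13. Kat2a and Kat2b, the alternative catalytic subunits of the SAGA and ATAC complexes, had differences of -0.20 and 0.003, and Kat14, a further ATAC subunit, had the highest of the class (0.12).

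**Figure D4:**
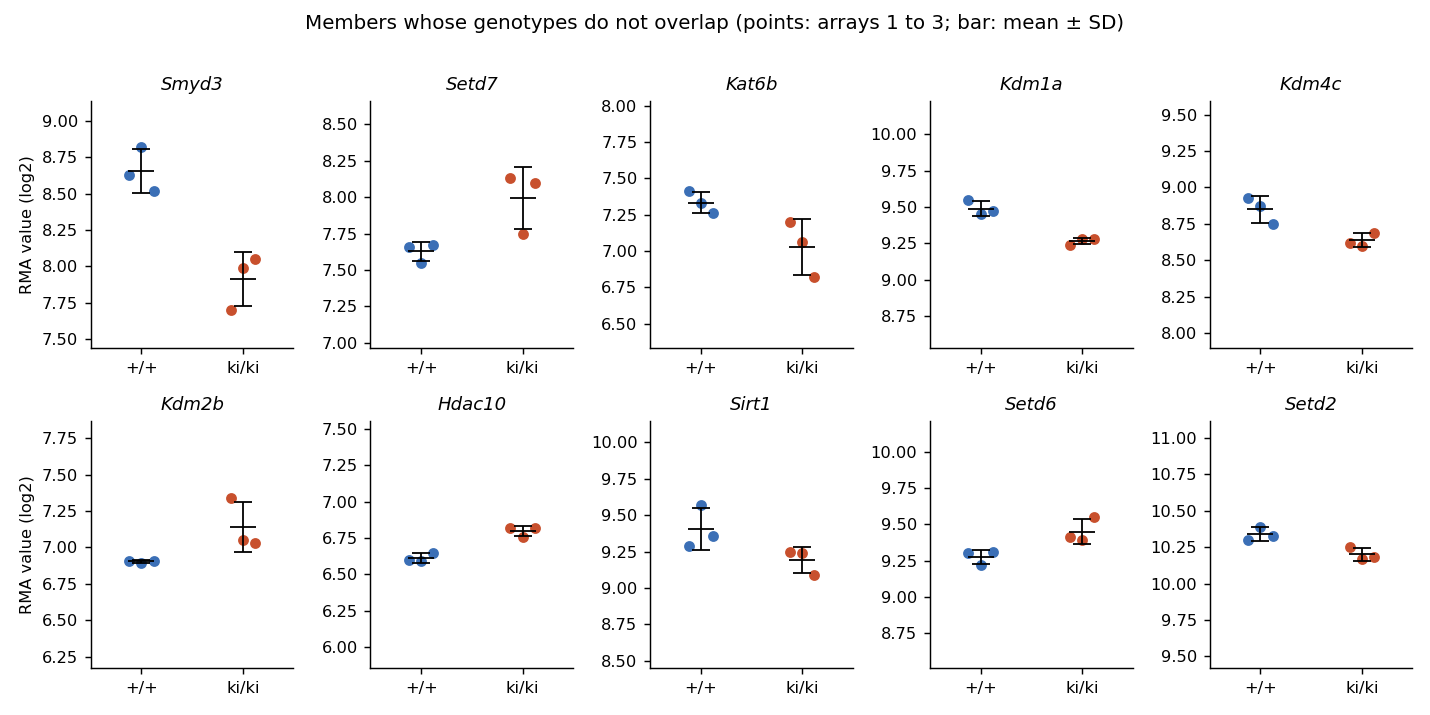
RMA values per array of the 10 members whose genotypes did not overlap, in order of p, with mean and SD of the 3 arrays of each genotype; every panel spans the same log2 range. Smyd3 has the widest gap, and the values of Setd7, Kdm2b, Hdac10 and Setd6 are higher in Fog1ki/ki.

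None of the 16 deacetylase genes passed in limma or had an unadjusted p under 0.05 (0 in both). Hdac3, the catalytic subunit of the NCoR and SMRT corepressor complexes, measured 7.49, 7.43 and 7.43 in Fog1+/+ and 7.52, 7.52 and 7.33 in Fog1ki/ki, a log2 difference of 0.01 (SE 0.09). The X-linked Hdac8 had a difference of -0.08 and the X-linked tubulin deacetylase Hdac6 one of -0.14. Of the class IIa genes, which act as signal-dependent corepressors, Hdac5, Hdac7 and Hdac9 lay between -0.05 and 0.14. Hdac4 had the highest difference among the Hdac genes (0.30, SE 0.20, and 0.17 in its other probe set), but its Fog1+/+ arrays alone ran from 7.36 to 8.01. Hdac10, a polyamine deacetylase, measured 6.60, 6.59 and 6.65 in Fog1+/+ and 6.82, 6.76 and 6.82 in Fog1ki/ki. These did not overlap, and the difference of 0.19 did not pass (SE 0.08, limma adjusted p = 0.540). Hdac11 had a difference of -0.03.

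Among the sirtuins, Sirt1, the nuclear deacetylase of histones and p53, measured 9.29, 9.57 and 9.36 in Fog1+/+ and 9.25, 9.24 and 9.09 in Fog1ki/ki, without overlap (log2 difference -0.21, SE 0.11, limma adjusted p = 0.591). Sirt7, the nucleolar H3K18 deacetylase, had a difference of 0.31 (SE 0.14, limma adjusted p = 0.556) and overlapped, with Fog1+/+ arrays from 6.50 to 6.99 and Fog1ki/ki arrays from 6.88 to 7.22. The mitochondrial Sirt4 measured 7.66, 7.47 and 7.53 in Fog1+/+ and 8.38, 7.63 and 7.75 in Fog1ki/ki. Replicate 1 of Fog1ki/ki stood well above the 5 other arrays, and the difference of 0.37 (SE 0.18) was 0.14 without it. The other mitochondrial sirtuins Sirt3 and Sirt5 had differences of -0.02 and 0.15, Sirt2 one of -0.19 and Sirt6, which acts at telomeres and DNA breaks, one of 0.13.

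The members varied more among the Fog1ki/ki arrays than among the Fog1+/+ arrays, as did genes in general. The median SD of a member was 0.09 in Fog1+/+ and 0.15 in Fog1ki/ki, against 0.10 and 0.14 for all genes, and the SD was larger in Fog1ki/ki for 50 of 72 members (69.4%) and 64.6% of all genes. Fog1ki/ki replicate 2 was the lowest of its genotype in 36 members, or 50%, against 29.9% of all genes. Fog1ki/ki replicate 1 was the highest in 31 members (43.1%, against 31.8% of all genes). The members were brighter than genes at large, with medians per array of 7.51 to 7.745 against 6.16 to 6.31. Over all probe sets, Fog1ki/ki replicate 2 had the lowest upper quartile of its genotype (7.61, against 7.68 and 7.63). Its median was not the lowest (6.12, against 6.02 and 6.15). Whether these ranks follow the level of the genes was not tested. The differences of Setd1b (brighter probe set) and Prdm4 changed sign without replicate 2, the array with high Xist and high Eif2s3y values, and that of Sirt4 was 0.14 without replicate 1.

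A list of other histone-modifying enzymes and of subunits of their complexes was read from the same fit, and 122 of its 130 genes were measured. Of these 1 rose, 0 fell and 121 did not pass, and at an unadjusted p under 0.05 there were 5 higher (4.99% of all genes were) and 8 lower (4.58% of all genes). The median difference was -0.02. The gene that rose was Gata2, a transcription factor included for its recruiting role rather than an enzyme (log2 difference 1.14, limma adjusted p = 0.0164), and its call was lost when any of the Fog1+/+ replicates or Fog1ki/ki replicate 3 was left out (limma adjusted p between 0.0579 and 0.0875) and without both arrays with low Y-linked values (0.217). For Gata1 the difference was -0.29 (SE 0.11, limma adjusted p = 0.435).

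The partners of LSD1 in the CoREST complex were among the deacetylase corepressor genes, of which 0 of 19 passed. At an unadjusted p under 0.05, 2 of the 19 were higher, against 4.99% of all genes. Rcor3 measured 7.87, 8.0 and 7.82 in Fog1+/+ and 8.76, 8.32 and 8.24 in Fog1ki/ki, without overlap (log2 difference 0.54, SE 0.14, limma adjusted p = 0.192). Rcor1, the founding CoREST scaffold, measured 9.81, 9.54 and 9.89 against 10.27, 9.95 and 9.96, also without overlap (0.31, SE 0.13, limma adjusted p = 0.485). Rcor2 and Hmg20b, other members of that complex, had differences of 0.02 and 0.03. The 19 genes had a median difference of -0.03, with 11 below 0. Gfi1b, which recruits LSD1, had a difference of 0.24 (SE 0.13) with overlapping genotypes.

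Of 18 Polycomb genes none passed (0 in limma, with 1 higher at an unadjusted p under 0.05, against 4.99% of all genes). The methyltransferase Ezh2 had a difference of -0.03 (SE 0.09), and Phf19, which guides the complex to H3K36-methylated chromatin, measured 7.10, 6.62 and 6.89 in Fog1+/+ and 7.47, 7.25 and 7.36 in Fog1ki/ki (0.49, limma adjusted p = 0.207). Of the 10 core subunits of the H3K4 methyltransferases, 0 passed, and Dpy30 had the smallest p (-0.24, limma adjusted p = 0.385). Of 11 other lysine methyltransferases and 8 arginine methyltransferases 0 passed, with the smallest p in Mecom (0.19) and Prmt7 (-0.23). Among 9 other JmjC proteins 0 passed, with Phf2 at 0.21. Of 11 other acetyltransferases 0 passed. At an unadjusted p under 0.05, 3 were lower, Naa60 (-0.39), Ncoa1 (-0.35) and Gtf3c4 (-0.28), against 4.58% of all genes. Ep300 and Crebbp, the p300 and CBP genes, had differences of -0.12 and 0.16. Of 28 acetyltransferase subunits 0 passed, with Supt3 of SAGA at -0.37 (limma adjusted p = 0.317) and Jade3, a partner of KAT7, at -0.33 (limma adjusted p = 0.397).

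**Figure D5:**
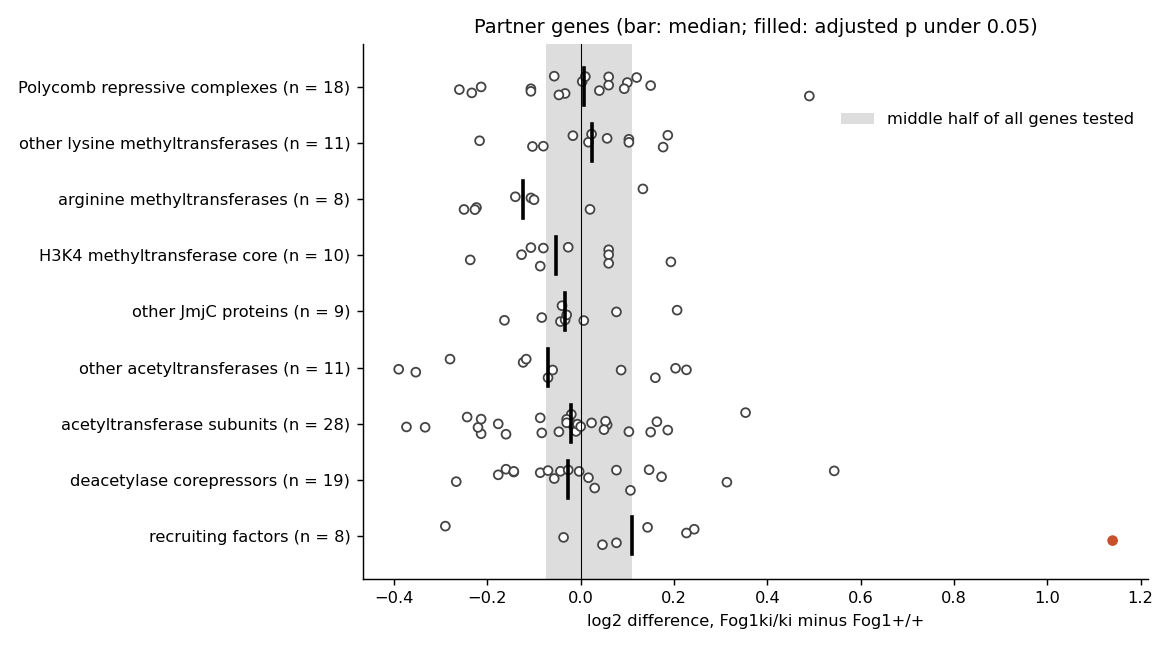
Log2 differences of 122 other histone-modifying enzymes, complex subunits and recruiting factors, with the median of each list as a bar and the middle quartiles of all genes as the grey band. The filled point is Gata2 (1.14); Rcor3 (0.54) and Phf19 (0.49) are the next highest.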

How the data were processed

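RNA of the 6 samples was amplified, converted to sense-strand cDNA and hybridised to 1-colour arrays, per the labels' protocols. The deposited values carry 2 decimals and lie on the log2 scale, as judged from their range, and the submitters' processing notes name RMA, which narrows differences of dim probe sets. Its software and the genome build were not given in the sources used. The number of arrays limits the precision.

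The platform annotation gave 1 gene for 20777 of 25668 probe sets, several for 232 and none for 4659, and 0 symbols differed from RefSeq (GRCm38.p6). Of 564 genes with several probe sets, the brightest over all arrays was used. limma 3.58.1 (R 4.3.3; lmFit, eBayes, two-sided) tested genotype alone, with Benjamini-Hochberg adjustment over 19661 genes. For 3 against 3 arrays an exact permutation p is at least 0.1, so none is given. Intervals are 95% intervals of the moderated model.

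The named genes were members past the threshold or at an unadjusted p under 0.05, each family's highest and lowest difference and brightest gene, and partner genes past either threshold or with the smallest p of their list. The other members are named to account for each family, and other partner genes for their known roles. Members and lists were chosen with earlier results of these data known. On simulated data for this comparison (19661 independent genes), limma called 8, 40, 47 and 50 of 50 genes changed by 0.5, 1, 1.5 and 2 (log2), and 3 of 19461 unchanged genes. The simulation dealt SDs to genes at random, with the same SD in both genotypes. In the data the SD was larger in Fog1ki/ki for 64.6% of all genes, so these rates need not hold for the arrays. Alternatives were 2 scalings, a filter on the dimmest 25% of genes, averaged or all probe sets, an intensity trend or array weights, a replicate block, a term for or omission of arrays low in Y-linked genes, an adjusted p under 0.1, and omission of each array. Tables and figures were made with Python 3.11.15, pandas 2.3.3 and matplotlib 3.10.9.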

Additional observations from a re-analysis of the deposited data

How the results depend on the processing

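The count of members past the threshold was 1 and became 0 with quantile normalization repeated, with all probe sets tested, with the replicate block, with a term for the arrays low in Y-linked values (low-Y arrays), without both of those and in each comparison that left out 1 array (0 to 0). At an adjusted p under 0.1 it was again 1. The count over all genes was 152, and it was 24 without both low-Y arrays and 60 to 134 with 1 array left out. The partner list count of 1 became 0 without both of those arrays, and ran from 0 to 1 with 1 array left out. Each class median moved by less than the SD of its class's median level within genotypes in all 14 settings run on it. That SD is a loose yardstick for a median difference. Testing all probe sets, the replicate block and the low-Y term could not move the medians. Those of the writers (-0.10 to 0.03), acetylases (-0.08 to 0.02), deacetylases (-0.04 to 0.09) and Prdm genes (-0.05 to 0.08) crossed 0. Some small differences turned sign. With 1 array left out, that of Prdm4 ran from -0.29 to 0.012 and that of the brighter Setd1b probe set from -0.41 to 0.03, both turned by Fog1ki/ki replicate 2, and that of Zfpm1 from -0.058 to 0.157, turned by Fog1+/+ replicate 2 and Fog1ki/ki replicate 3. With quantile normalization repeated that of Setd3 was 0.032. None of these passed in any setting, and the cause was not tested.

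In the labels, arrays of different genotypes share only a replicate number. In the values, both replicate 3 arrays also had low Y-linked and high Xist values. Deviations of same-numbered arrays correlated at 0.07, -0.01 and 0.13, and 4 of 6 arrays correlated best with their own number. With the replicate block 133 genes passed, 0 of them members.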
